A study of Sus scrofa with 6 samples.

Results

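The elastic fibre and crosslinking genes were a set of 10 genes chosen by name, namely ELN, FBN1, FBLN1, FBLN5, EMILIN1, MFAP4, MFAP5, LTBP4, LOX and LOXL1. They were 10 of the 30477 genes in the expression table, and all 10 passed the filter on low values that kept 15384 genes for testing. Expression was measured by RNA sequencing in the abdominal aorta of 6 male Wuzhishan pigs, a miniature breed, with 1 library per pig. The 3 pigs of the NC group ate normal chow, and the 3 pigs of the HFCF group ate a diet rich in fat, cholesterol and fructose, made by adding shortening oil, egg yolk powder, cholesterol and fructose to chow. Feeding lasted 6 months in both groups. The labels give an age of 3 to 4 months and the methods an older one. The RNA came from aortic tissue that holds several cell types, so fewer cells of a type and less RNA per cell cannot be told apart in any of the values below.

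Elastic fibres let a large artery stretch with each heartbeat and recoil afterwards. Smooth muscle cells and fibroblasts secrete the soluble precursor tropoelastin, which gathers on a scaffold of fibrillin microfibrils with the help of fibulins, emilins and latent TGF-beta binding proteins. Copper-dependent lysyl oxidases then oxidize lysine residues so that neighbouring molecules become joined into an insoluble network. Most elastin is laid down early in life and turns over slowly.

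Levels are given as FPKM, the fragments of a gene per unit of transcript length and of library size, which is scaled to gene length and allows genes to be set side by side. Differences are log2 fold changes of the HFCF over the NC group on the log2(FPKM + 0.1) scale, tested with limma and adjusted over all tested genes by the Benjamini-Hochberg method, and a gene was called at an adjusted p under 0.05. Relative sequencing depth, read from the steps between low FPKM values, was 1 to 1.37 in the NC pigs and 1.02 to 1.07 in the HFCF pigs, with the first NC pig set to 1, and the depth itself is unknown. Across the table, total FPKM lay between 272207 and 287141 in the NC group and between 330222 and 338690 in the HFCF group, and the middle log2 fold change over the tested genes was 0.32. It was -0.003 after median-ratio scaling of the libraries, -0.07 with quantile normalization and 0.09 with rescaling to TPM, which gives every library the same total. Of all tested genes, 22.8% were called higher and 6.16% lower in the HFCF group. Of the mitochondrial ribosomal RNA genes, 1 stood at 0.295 to 0.686 FPKM in the NC pigs and at 141 to 206 FPKM in the HFCF pigs. The other stood at 113 to 372 FPKM and at 101 to 130.5 FPKM, so that its groups overlapped. Their part in the results was not tested.

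Of the 10 genes, MFAP4 and LTBP4 fell in the HFCF group, LOX rose, and 7 did not pass the test. Their median log2 fold change was -0.16, beside 0.32 over all tested genes. The count of 1 gene called higher stands beside 22.8% of all genes, and the count of 2 called lower beside 6.16%. By the thresholds in the methods, a ratio of group means above 2 or below 0.5 with an unadjusted p under 0.05, MFAP4 and LTBP4 were lower and 0 of the 10 were higher. The same thresholds gave 20.7% higher and 4.82% lower over all tested genes. The values of the 3 HFCF pigs lay wholly above those of the 3 NC pigs for LOX and wholly below them for MFAP4 and LTBP4, a pattern found upwards in 36.1% and downwards in 12.1% of all tested genes.

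**Figure D1:**
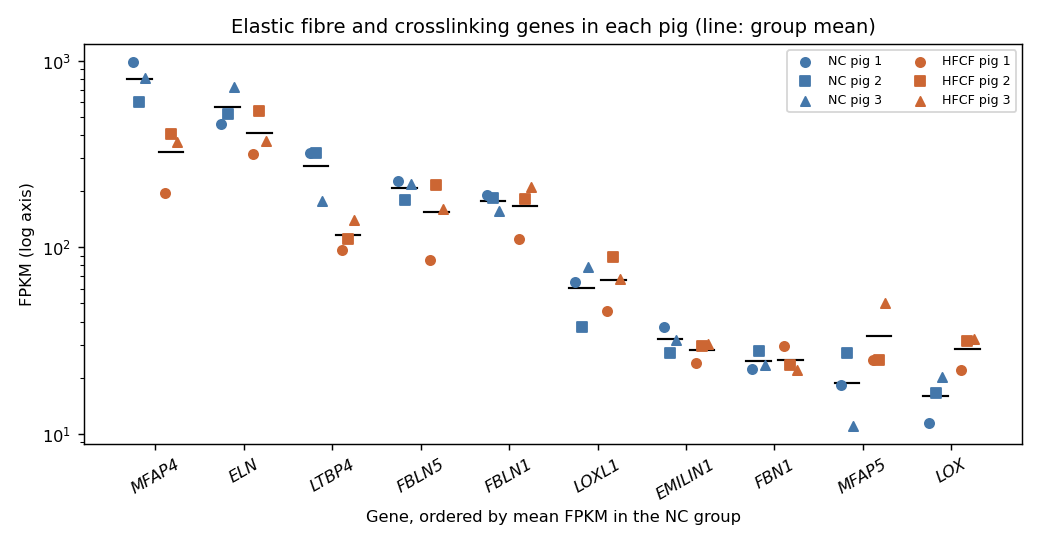
FPKM of the 10 genes in each of the 6 pigs, on a log10 axis, with a point for each pig, grouped by diet, and a line at each group mean. The NC and HFCF points are apart for MFAP4, LTBP4 and LOX and overlap for the other 7 genes.

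ELN encodes tropoelastin, the monomer of the elastic core. It stood at 457, 520.4 and 721 FPKM in the NC pigs and at 318, 537 and 374 FPKM in the HFCF pigs. The second HFCF pig lay inside the NC range and the other HFCF pigs lay below it. The means were 566 ± 138 FPKM (SD, n = 3) for NC and 409 ± 114 FPKM (SD, n = 3) for HFCF, with a log2 fold change of -0.48 (95% interval -1.09 to 0.14, adjusted p = 0.211). ELN was called in 0 of the 15 alternative analyses, and its lowest adjusted p, 0.0543, came with median-ratio scaling, where the log2 fold change was -0.83.

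The microfibril and its surface proteins came next. FBN1 encodes fibrillin-1, the main building block of the microfibril and the gene mutated in Marfan syndrome. Its level was 22.3, 27.9 and 23.3 FPKM in the NC group and 29.6, 23.5 and 21.9 FPKM in the HFCF group. The groups overlapped almost fully, and FBN1 had the difference nearest to 0 of the set. The log2 fold change was 0.03 (95% interval -0.38 to 0.43, adjusted p = 0.925) and turned to -0.33, -0.12 and -0.23 under median-ratio scaling, quantile normalization and rescaling to TPM.

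MFAP4, microfibril-associated protein 4, is a fibrinogen-domain glycoprotein that binds tropoelastin and fibrillin and is abundant in arteries. It was measured at 985, 606 and 809 FPKM in the NC pigs and at 196, 403 and 369 FPKM in the HFCF pigs. Every HFCF pig lay below every NC pig, and the first HFCF pig was the lowest. The mean went from 799.7 ± 189.8 FPKM (SD, n = 3) to 323 ± 111 FPKM (SD, n = 3), a log2 fold change of -1.35 with a standard error of 0.32 (95% interval -2.10 to -0.59, limma adjusted p = 0.0212). The call held in 12 of 15 alternatives, the 3 rescalings included. It was lost without the first NC pig (adjusted p = 0.0834) and without the third NC pig (adjusted p = 0.0574).

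MFAP5, also called MAGP-2, is a small microfibril glycoprotein that binds fibrillin. Its FPKM was 18.3, 27.1 and 10.996 in the NC group and 25.0, 24.8 and 50.1 in the HFCF group. The third HFCF pig lay above all the others, and its 2 group mates lay inside the NC range. The log2 fold change of 0.83 was close in size to that of LOX but had a wider interval, -0.10 to 1.77, and did not pass (adjusted p = 0.154). EMILIN1, a glycoprotein at the interface of elastin and microfibril, stood at 37.2, 27.1 and 31.9 FPKM in the NC pigs and at 24.1, 29.5 and 30.3 FPKM in the HFCF pigs, with a log2 fold change of -0.19 (95% interval -0.60 to 0.21, adjusted p = 0.433).

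The fibulins FBLN5 and FBLN1 did not pass the test. FBLN5 carries tropoelastin to the microfibril and binds integrins on the cell surface, and mice without it have disorganized elastic fibres. Its values were 226, 181 and 219 FPKM in the NC group and 85.6, 216 and 160.3 FPKM in the HFCF group. The NC pigs lay close together, while the first HFCF pig was far below all the others and the second lay among the NC pigs. The log2 fold change was -0.53 (95% interval -1.30 to 0.24, adjusted p = 0.262). FBLN1, a fibulin found in elastic fibres and basement membranes, stood at 190.4, 185 and 157 FPKM in the NC pigs and at 111, 181 and 211 FPKM in the HFCF pigs, so that the HFCF pigs spanned the whole NC range. Its log2 fold change was -0.13 (95% interval -0.72 to 0.46, adjusted p = 0.729).

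LTBP4 belongs to the latent TGF-beta binding proteins, which tether the inactive growth factor to the matrix, and it also helps fibulin-5 place elastin on microfibrils. It stood at 320.1, 320.0 and 177 FPKM in the NC pigs and at 96.7, 110.4 and 140.5 FPKM in the HFCF pigs. The first and second NC pigs were almost equal, and the third NC pig was nearer to the highest HFCF pig than to them. The mean fell from 272 ± 82.5 FPKM (SD, n = 3) to 116 ± 22.4 FPKM (SD, n = 3), with a log2 fold change of -1.20 and a standard error of 0.27 (95% interval -1.84 to -0.56, limma adjusted p = 0.0184). The call held in 11 of 15 alternatives, the 3 rescalings included, and was lost without the first NC pig (adjusted p = 0.0736), the second NC pig (0.0593) or the second HFCF pig (0.0541).

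LOX and LOXL1 are the crosslinkers of the set. LOX encodes lysyl oxidase, which acts on elastin and fibrillar collagen, and loss of it causes aortic aneurysm in mice. Its level was 11.5, 16.6 and 20.03 FPKM in the NC group and 22.1, 31.5 and 32.1 FPKM in the HFCF group. The lowest HFCF pig and the highest NC pig were only narrowly apart. The mean rose from 16.02 ± 4.32 FPKM (SD, n = 3) to 28.6 ± 5.62 FPKM (SD, n = 3), a log2 fold change of 0.85 with a standard error of 0.25 (95% interval 0.26 to 1.44, limma adjusted p = 0.0425). The call held in 6 of 15 alternatives. It was lost under median-ratio scaling (log2 fold change 0.49, adjusted p = 0.173), quantile normalization (0.68, adjusted p = 0.0763) and rescaling to TPM (0.59, adjusted p = 0.137), and without the first NC pig, the second NC pig, the second HFCF pig or the third HFCF pig (adjusted p = 0.0896 to 0.116).

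LOXL1, lysyl oxidase-like 1, acts mainly on elastin, and mice without it fail to renew elastic fibres. It stood at 65.0, 37.2 and 78.4 FPKM in the NC pigs and at 45.8, 88.2 and 67.4 FPKM in the HFCF pigs. Both groups were widely spread and overlapped. The log2 fold change was 0.17 (95% interval -0.62 to 0.97, adjusted p = 0.729) and became -0.18 under median-ratio scaling and -0.09 under rescaling to TPM.

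**Figure D2:**
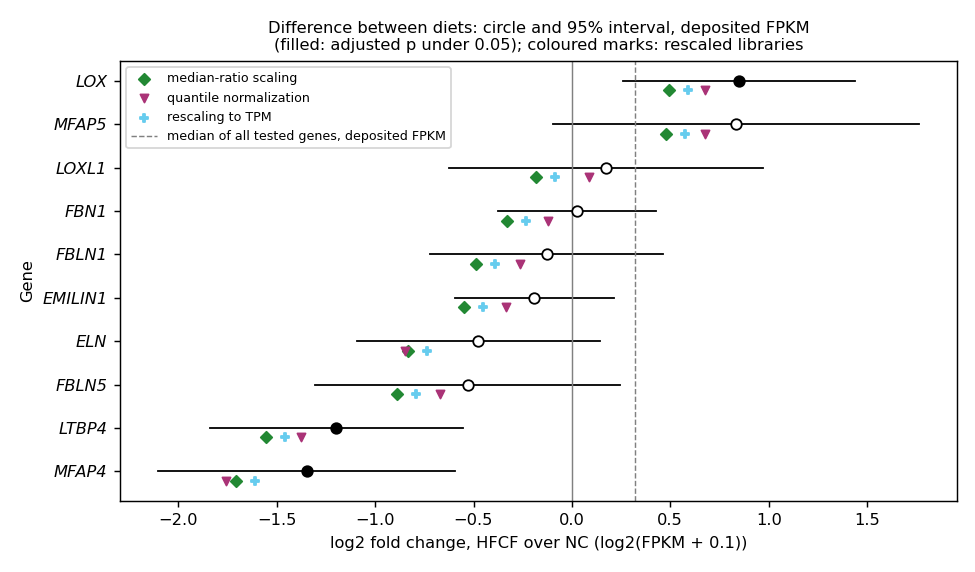
Log2 fold change of each gene, HFCF over NC, on the log2(FPKM + 0.1) scale, with its 95% interval, and the same value after 3 rescalings of the libraries. The intervals of MFAP4, LTBP4 and LOX leave out 0, and the rescaled values of all 10 genes lie to the left of the deposited ones.

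The first HFCF pig had the lowest value of its group in 8 of the 10 genes, FBN1 and MFAP5 being the exceptions. How often this pig was lowest over all tested genes was not counted, so this is not shown to be particular to the 10 genes. The lowest NC value was in the first NC pig for 3 genes, the second for 4 and the third for 3. The highest NC value was in the first NC pig for 5 genes, the second for 2 and the third for 3. Summed over the 10 genes, the NC pigs had 2333, 1948 and 2248 FPKM. The HFCF pigs had 954, 1645 and 1456 FPKM. Every HFCF sum was below every NC sum, and the first HFCF pig was lowest. As a share of all FPKM in the library, the 10 genes took 0.834%, 0.678% and 0.826% in the NC group and 0.282%, 0.490% and 0.441% in the HFCF group.

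**Figure D3:**
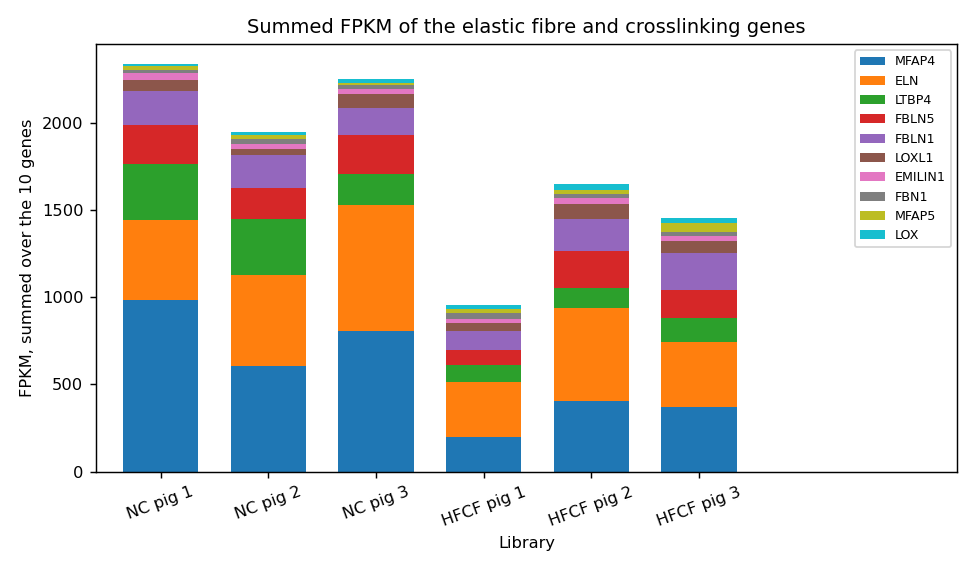
FPKM summed over the 10 genes in each of the 6 libraries, stacked by gene, on an axis that starts at 0. The NC sums lie between 1948 and 2333 and the HFCF sums between 954 and 1645, with MFAP4 and ELN as the thickest layers.

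Within that sum the proportions also differed. MFAP4 made up 42.2%, 31.1% and 36.0% of it in the NC group and 20.6%, 24.5% and 25.3% in the HFCF group. LOX made up 0.491%, 0.851% and 0.891% in the NC pigs and 2.32%, 1.92% and 2.21% among the HFCF pigs. The shares of FBLN1, EMILIN1, MFAP5 and LOXL1, none of them called, were also higher in every HFCF pig than in every NC pig. Shares within a sum depend on each other, so a smaller part of MFAP4 makes those of the others larger. The sum itself was lower in every HFCF pig, so a gene with an unchanged level also gains in share. How often all tested genes were wholly higher against this sum was not counted. The higher shares, that of LOX included, are therefore not shown to be particular to these genes. The shares of ELN, by contrast, overlapped, at 19.6%, 26.7% and 32.1% against 33.3%, 32.6% and 25.7%. In order of mean FPKM, the NC group ran MFAP4, ELN, LTBP4, FBLN5, FBLN1, LOXL1, EMILIN1, FBN1, MFAP5 and LOX. Neighbours in that order had ranges that were apart only between ELN and LTBP4, between FBLN1 and LOXL1, and between LOXL1 and EMILIN1. The HFCF group ran ELN, MFAP4, FBLN1, FBLN5, LTBP4, LOXL1, MFAP5, LOX, EMILIN1 and FBN1, and only LTBP4 and LOXL1 had ranges that were apart.

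Each gene was also set against ELN within its library, a ratio that dividing the whole library by 1 factor leaves as it is. Quantile normalization does alter it, and there the differences from ELN were 1.53 for LOX, 0.94 for LOXL1 and -0.91 for MFAP4, while that of FBLN5 turned from -0.05 to 0.18. With 3 pigs against 3, the smallest two-sided exact permutation p is 0.1. The log2 ratio of LOX to ELN was -5.31, -4.96 and -5.16 in the NC group and -3.84, -4.09 and -3.54 in the HFCF group, a difference of 1.32 or 2.50-fold (exact permutation p = 0.1). LOXL1 relative to ELN was also higher in every HFCF pig, by 0.65 on the log2 scale (1.57-fold, exact permutation p = 0.1), although the first HFCF pig (-2.79) was barely above the first NC pig (-2.81). MFAP4 relative to ELN was lower in every HFCF pig, by a log2 difference of -0.87 (0.546-fold, exact permutation p = 0.1). The ratios of the other 6 genes to ELN overlapped between the diets, with log2 differences from -0.72 for LTBP4 to 1.31 for MFAP5. Over all tested genes, 45.8% had a ratio to ELN that was wholly higher and 2.45% one that was wholly lower in the HFCF pigs, and the median difference was 0.80.

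**Figure D4:**
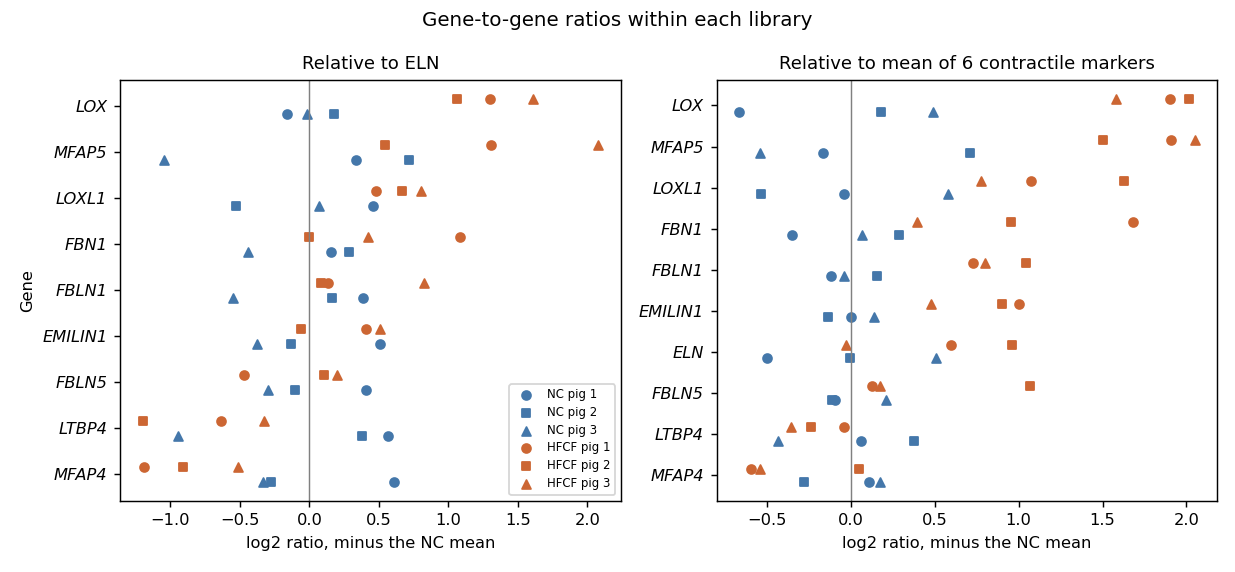
Log2 ratio of each gene to ELN and to the mean of the contractile markers in each of the 6 libraries, minus the mean of the NC group, with a point per pig. The HFCF points of LOX lie wholly above its NC points against either denominator, and those of MFAP4 lie wholly below only against ELN.

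Markers of contractile smooth muscle, the main cell of the aortic media and a source of elastin, were lower in the same pigs. Of 6 markers 4 fell and 0 rose, beside 6.16% called lower and 22.8% called higher over all tested genes. Their summed level was 15145 to 21336 FPKM in the NC pigs and 7660 to 12401 FPKM in the HFCF pigs, the first HFCF pig being lowest. Their mean log2 level differed by -0.99 (exact permutation p = 0.1). Relative to that mean, LOX was higher by 1.83 on the log2 scale (3.56-fold), MFAP5 by 1.82, LOXL1 by 1.16, FBN1 by 1.01, FBLN1 by 0.86 and EMILIN1 by 0.79, each with all HFCF pigs above all NC pigs (exact permutation p = 0.1 for each). The values of ELN (0.51) and FBLN5 (0.46), and of MFAP4 (-0.36) and LTBP4 (-0.21), overlapped between the diets. Against the same denominator 67.1% of all tested genes were wholly higher and 0.969% wholly lower, with a median difference of 1.31, so that 6 of 10 is near the share of all genes.

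Markers of other cell types were also read. Over all tested genes, 22.8% were called higher and 6.16% lower. All 6 macrophage markers rose, with a summed level of 20.2 to 20.8 FPKM in the NC pigs and 194 to 471 FPKM in the HFCF pigs, and 3 of 5 markers of lipid-laden macrophages rose, from 130.1 to 159 FPKM up to 526 to 1114 FPKM. The first HFCF pig, lowest in most of the 10 genes, was the highest in both lists. Of 6 fibroblast markers 1 rose and 0 fell, with sums of 1251 to 2684 FPKM and 1626 to 2826 FPKM, and 0 of 5 endothelial markers (104 to 218 FPKM and 87.1 to 233 FPKM) and 0 of 5 adipocyte markers (36.9 to 284 FPKM and 71.3 to 98.6 FPKM) were called. Of 4 T cell markers 2 rose (0.420 to 0.665 FPKM and 1.59 to 8.92 FPKM), and of 4 B and plasma cell markers 1 rose (6.49 to 11.1 FPKM and 35.5 to 48.2 FPKM). The calls of 1 of 6 fibroblast and 1 of 4 B and plasma cell markers are under or near the share of all tested genes called higher. Red blood cell genes, 0 of 2 of them called, summed to between 22.03 and 178 FPKM in the NC group. The first HFCF pig had 2883 FPKM of them, and the second and the third had 85.6 and 95.5 FPKM. Markers of skeletal muscle (0.957 to 4.86 FPKM and 0.666 to 6.91 FPKM) and of Schwann cells (2.96 to 18.8 FPKM and 3.02 to 12.7 FPKM) had 0 of 3 called in each list. The part of these cells in the values of the 10 genes was not tested.

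The wider pathway was read from 6 lists, of which 69 genes were tested, with 11 (15.9%) called higher and 7 (10.1%) lower, beside 22.8% and 6.16% of all tested genes. Under median-ratio scaling the counts were 6 higher and 10 lower, and under rescaling to TPM 7 and 8. Over all 15384 tested genes, the same scalings called 2033 higher and 1968 lower, and 2229 higher and 1527 lower. Among 21 tested partners of the microfibril and elastic fibre, 0 rose and 3 fell, with a median log2 fold change of 0.03. THSD4, also called ADAMTSL6, which promotes fibrillin-1 assembly, averaged 15.3 ± 2.57 FPKM in NC and 4.80 ± 0.543 FPKM in HFCF pigs (SD, n = 3 each). It fell by 1.65 on the log2 scale (limma adjusted p = 0.00187) and was called in all 15 alternatives. LTBP3 fell from 163 ± 22.6 to 86.4 ± 24.2 FPKM (SD, n = 3 each; log2 fold change -0.95, adjusted p = 0.0262). LTBP1 fell from 125 ± 20.03 to 80.8 ± 3.10 FPKM (SD, n = 3 each; log2 fold change -0.62, adjusted p = 0.0282). The call of LTBP3 was lost without the first NC pig or the third NC pig, and that of LTBP1 without any single pig other than the second NC pig.

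By family, 3 of the 4 latent TGF-beta binding proteins fell, beside 6.16% of all tested genes. The count was 3 under each of the 3 rescalings, 0 without the first NC pig, 0 with a replicate block, 1 without the third NC pig or the second HFCF pig, and 2 without any other single pig. The rescalings also called more of all 15384 tested genes lower. There were 1968 under median-ratio scaling, 1782 under quantile normalization and 1527 under rescaling to TPM, against 948 with the deposited values. The fourth, LTBP2, was at 41.8 ± 6.89 and 46.9 ± 28.1 FPKM (SD, n = 3 each), with a log2 fold change of 0.02 (95% interval -0.86 to 0.91). None of the 7 fibulins tested was called with the deposited values, their log2 fold changes running from -0.53 to 0.68, although 1 was called under median-ratio scaling and 1 under rescaling to TPM. Of the 5 lysyl oxidases, LOX alone was called higher, beside 22.8% of all tested genes, and 0 were called under any of the 3 rescalings. LOXL2, LOXL3 and LOXL4 had log2 fold changes of 0.58, 0.29 and 0.06. Neither of the 2 fibrillins tested was called, FBN3 being listed at 0 in every library.

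Among 15 crosslinking enzymes and their helpers, 4 rose and 0 fell, with a median log2 fold change of 0.42. The 4 were 26.7% of the list, near the 22.8% called higher over all tested genes, whose median was 0.32. ATOX1, the chaperone that hands copper to the secretory pathway, where lysyl oxidases receive it, stood at 5.72, 4.61 and 3.53 FPKM in the NC pigs and at 24.4, 26.5 and 25.5 FPKM in the HFCF pigs. These values were far apart between the diets, with a log2 fold change of 2.46 (adjusted p = 0.000774) that was called in all 15 alternatives. POSTN, periostin, a matricellular protein that aids lysyl oxidase activation, rose from 11.6 ± 7.24 to 42.2 ± 15.6 FPKM (SD, n = 3 each; log2 fold change 1.95, adjusted p = 0.0238). SLC31A1, the copper importer, rose from 4.47 ± 0.958 to 9.68 ± 3.89 FPKM (log2 fold change 1.05, adjusted p = 0.0406), and TLL1, a relative of the protease that activates pro-lysyl oxidase, from 0.316 ± 0.180 to 1.82 ± 1.51 FPKM (log2 fold change 2.01, adjusted p = 0.0396). SLC31A1 and TLL1 were each called in 4 of 15 alternatives and under 0 of 3 rescalings, and their calls were lost without any single pig other than the third HFCF pig. POSTN was called in 10, and its call was lost without the first or second pig of either group.

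**Figure D5:**
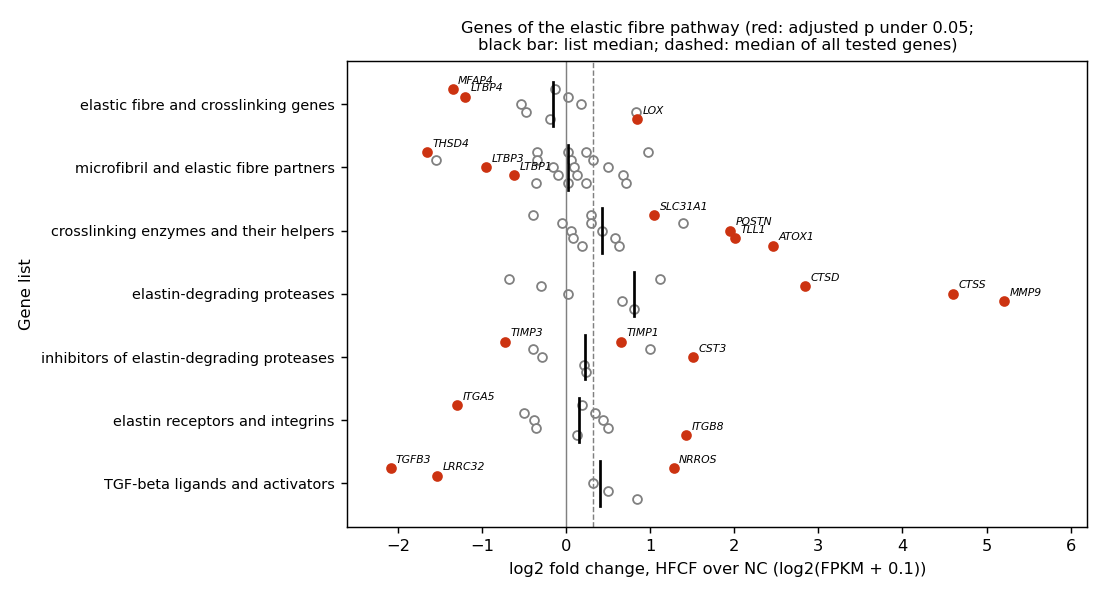
Log2 fold change, HFCF over NC, of each tested gene in the set of 10 and in the 6 pathway lists, with the list median as a bar. Called genes are filled and named, and they reach from -2.09 for TGFB3 to 5.21 for MMP9.

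Proteases listed for elastin breakdown, the lysosomal CTSD among them, were measured with their inhibitors in the same libraries. How far each of them cuts elastin was not measured. Of 9 proteases tested, 3 rose (33.3%, beside 22.8% of all tested genes) and 0 fell (beside 6.16%), with a median log2 fold change of 0.81. The list also held CTSK, which was not found under that symbol, and MMP7, listed at 0 in every library. Neither was tested. MMP9, a gelatinase that degrades elastin, stood at 0.131, 0 and 0.410 FPKM in the NC pigs and at 31.1, 8.38 and 2.17 FPKM in the HFCF pigs (log2 fold change 5.21, adjusted p = 0.0102). CTSS, a cathepsin of macrophages with strong elastase activity, went from 1.87, 2.29 and 3.18 FPKM to 123, 56.3 and 31.7 FPKM (log2 fold change 4.601, adjusted p = 0.00153), and CTSD, a lysosomal aspartic protease, rose by 2.84 on the log2 scale (adjusted p = 0.00312). In all 3 genes the first HFCF pig was the highest, as it was for the macrophage markers, and all 3 calls held in 15 of 15 alternatives. MMP2 and MMP12 were not called, with log2 fold changes of -0.68 (95% interval -1.49 to 0.12) and 1.12 (95% interval -1.14 to 3.39).

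Of 8 inhibitors, 2 rose, a share of 25% that is near the 22.8% of all tested genes, and 1 fell, with a median log2 fold change of 0.22 beside 0.32. CST3, cystatin C, which blocks cysteine cathepsins, rose from 821 ± 112 to 2374 ± 547 FPKM (SD, n = 3 each; log2 fold change 1.51, adjusted p = 0.00561), in 15 of 15 alternatives. TIMP1 rose by 0.65 on the log2 scale (adjusted p = 0.0326) and TIMP3, the inhibitor that binds to matrix, fell by 0.72 (adjusted p = 0.0475). TIMP1 was called in 3 of 15 alternatives and under 0 of 3 rescalings, and was lost without any single pig. TIMP3 was called in 6 and was lost without any single pig other than the third NC pig.

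Receptors and the growth factor that latent binding proteins hold gave calls in both directions. The list of 10 elastin receptors and integrins had 1 rise (10%), 1 fall (10%) and a median log2 fold change of 0.16. That of 6 TGF-beta ligands and activators had 1 rise (16.7%), 2 falls (33.3%) and a median of 0.41. Over all tested genes, 22.8% were called higher and 6.16% lower, so the rises in both lists were under that share. Of the 10 elastin receptors and integrins, ITGA5, the fibronectin receptor subunit, fell from 197 ± 73.6 to 80.6 ± 30.9 FPKM (SD, n = 3 each; log2 fold change -1.30, adjusted p = 0.0347), and ITGB8, a subunit that takes part in TGF-beta activation, rose from 0.199 ± 0.0245 to 0.738 ± 0.294 FPKM (log2 fold change 1.43, adjusted p = 0.0281). ITGA5 was called in 8 of 15 alternatives and was lost without the first or second pig of either group, and ITGB8 in 5 of 14, lost without any single pig other than the third HFCF pig. Among the ligands, TGFB3 stood at 253, 242 and 121 FPKM in the NC pigs and at 66.6, 44.3 and 32.6 FPKM in the HFCF pigs (log2 fold change -2.09, adjusted p = 0.00741). LRRC32, which displays latent TGF-beta on the cell surface, fell by 1.53 on the log2 scale (adjusted p = 0.00369), and NRROS, which does so on myeloid cells, rose by 1.28 (adjusted p = 0.0389). TGFB3 and LRRC32 were called in 15 of 15 alternatives, and NRROS in 5, under 0 of 3 rescalings, and it was lost without any single pig other than the second HFCF pig. TGFB1 and TGFB2 were not called, at log2 fold changes of 0.32 and 0.84.

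Over the 6 libraries, the genes whose log2 levels ran most like ELN among 10099 genes with an unshared symbol and a mean FPKM of at least 1 were ITGB5 (Pearson r = 0.990), MMAB (0.986), GJA5 (0.9754), DYRK2 (0.973) and RGP1 (0.971). Those most like LOX were ZNF821 (0.997), DNAJC1 (0.994), PSMC2 (0.992), FAM89B (0.991) and ZFP62 (0.991). No member of the set was among either 5. FBLN5 was the member most like ELN (r = 0.79, rank 451), followed by MFAP4 (r = 0.72, rank 793), while MFAP5 ran opposite to it (r = -0.69). ELN and LOX had r = -0.16. These values describe 6 points that share libraries and fall into 2 diets.

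In the annotation deposited with the values, all 10 genes carried terms of the extracellular matrix or its enzymes. The term for collagen-containing extracellular matrix was on 7 of them and on 103 of the 12891 annotated genes tested. Elastic fiber assembly was on EMILIN1, FBLN5, LOX and MFAP4, which were 4 of 8 tested genes with the term, and microfibril on FBN1, MFAP4 and MFAP5, 3 of 8. Copper ion binding and protein-lysine 6-oxidase activity were on LOX and LOXL1. Calcium ion binding was on FBLN1, FBLN5, FBN1 and LTBP4.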

How the data were processed

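Paired-end reads of total RNA from the abdominal aorta were trimmed with cutadapt 1.9, checked with FastQC and aligned with HISAT2, per the submitters' processing notes, and assembled with StringTie, per the methods. The authors deposited FPKM values of 30477 genes for 6 libraries, used here as given, with 0.0001 FPKM read as 0. No coordinates are printed, because the build in the methods is older than that of the reference table. Read counts were not used here. Of 13993 genes listed by ID only, 771 were named from a gene-name table by ID.

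Genes averaging 0.1 FPKM or more (15384) were taken to log2(FPKM + 0.1). A linear model on diet alone was fitted to them in limma 3.58.1 (R 4.3.3), with eBayes variances following a trend, and p-values were adjusted by Benjamini-Hochberg over all of these genes. A fold change on this scale understates that of low genes. Ratios within libraries were tested with two-sided exact permutation tests that went through every split of the libraries (numpy 2.4.6). The labels give no batch, and p-values measure the spread between pigs. Pseudocounts of 1 and 0.01 were tried among 15 alternatives, as were no filter, a minimum mean of 1 FPKM, 3 rescalings, eBayes without a trend, a replicate block and leaving out each library. The fit was tested on simulated data.

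All 10 genes were named. Up to 4 called genes in each direction were named from each list, and the 5 genes most like ELN and LOX. The genes and lists were chosen with earlier results of these data known.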

Additional observations from a re-analysis of the deposited data

How the results depend on the processing

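Of the log2 fold changes of the 10 genes under the alternatives, 123 kept their direction and their side of the threshold, 16 kept only their direction and 11 changed direction. The ratios could not pass 0.05 at 3 pigs against 3, so only their direction was compared. They were rerun without each library. Ratios to ELN were also rerun with a pseudocount of 1, and ratios to the contractile markers with 1 of these markers, MYH11, alone. In these runs 131 kept their direction and 2 changed. Quantile normalization was not among these runs, and there the difference of FBLN5 from ELN also changed direction, from -0.05 to 0.18. FBN1 turned to -0.33, -0.12 and -0.23 (log2) under median-ratio scaling, quantile normalization and rescaling to TPM, and ranged from -0.10 to 0.12 when each library was left out. LOXL1 turned to -0.18 under median-ratio scaling and -0.087 under rescaling to TPM, and ranged from -0.14 to 0.42 without single libraries. FBLN1 ranged from -0.32 to 0.14, and the ratio of FBLN5 to ELN from -0.20 to 0.15. The count of the 10 genes called higher was 0 with no filter, under each of the 3 rescalings and without the variance trend, and 0 to 1 without single libraries. The count called lower was 0 to 2 without single libraries, and the count higher by the ratio and unadjusted p was 0 to 1. Of the other pathway genes, 11 were called higher, against 6 with no filter, 6 under median-ratio scaling, 6 under quantile normalization, 7 under rescaling to TPM and 5 to 12 without single libraries. For those called lower, 7 became 10 under median-ratio scaling, 7 under quantile normalization, 8 under rescaling to TPM, 4 without the variance trend and 3 to 6 without single libraries. The cause was not tested, except that a left-out library leaves fewer samples.

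The replicate numbers were not treated as pairs of pigs. Same-numbered libraries had correlations of 0.02, -0.08 and -0.07 between their deviations from the group means. Deviations from a mean of 3 pigs depend on each other, so these values cannot decide whether pigs were matched. A fit with the replicate block called 0 of the 10 genes lower and 1 higher, 6 of the other pathway genes higher and 3 lower, and 2232 genes higher and 540 lower over the whole table, against 3505 and 948 without it. No library correlated best with the library of its own number in the other group. Over the whole table, the counts higher and lower were 2033 and 1968 under median-ratio scaling, 1748 and 1782 under quantile normalization, 2229 and 1527 under rescaling to TPM, and 1979 to 2815 and 442 to 786 without single libraries. Depth is unknown, so the error of low values such as MMP9 and TLL1 in the NC pigs could not be given.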
